A study of Mus musculus with 57 samples.

Results

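The translation initiation and elongation factor genes were followed in single prostate cancer cells sorted from mouse bone. They were chosen by name, as the genes whose symbol begins with Eif or Eef, leaving out the 4 Eif2ak kinases and 4 pseudogenes, and 61 of the 12887 genes of the table of all cells met this rule. The cells were RM1, a mouse prostate cancer line that carried genes for the cyan fluorescent protein eCFP and the luciferase luc2. The membrane dye PKH26, which is diluted at each division, was put on them before C57BL/6 mice received them by intracardiac injection. Cells sorted from bone that kept the dye are called dormant here, and cells without it proliferating. Of 57 cells, 28 were dormant and 29 proliferating. Each state was represented by 6 mice, with 8 mice in all and endpoints between day 13 and day 26 after injection. Mice 360, 369, 452 and 1185 gave cells of both states. Mice 244 and 1184 gave dormant cells only, and mice 268 and 288 proliferating cells only. No untreated, uninjected or cultured group was analysed here, and every cell passed through the same dye labelling and injection. Each library batch held cells of 1 state, so a batch effect and a state effect cannot be told apart.

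Translation of an mRNA begins when eIF2, bound to GTP and the initiator tRNA, joins eIF1, eIF1A, eIF3 and eIF5 on the small ribosomal subunit, and when eIF4E, the scaffold eIF4G and the helicase eIF4A bring the capped mRNA to it. Phosphorylation of the alpha subunit of eIF2 lowers initiation by trapping the exchange factor eIF2B, and unphosphorylated 4E-BP proteins compete with eIF4G for eIF4E under the control of mTOR. Elongation is carried by eEF1A, which delivers aminoacyl-tRNA and is recharged by the eEF1B subunits, and by eEF2, which moves the ribosome along and is inhibited by the kinase eEF2K. Cells that divide make protein at a high rate, and the factors are regulated both by the amount of their mRNAs and, for many of them, by a run of pyrimidines at the 5′ end of the mRNA that places its own translation under mTOR.

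That run is shown first because it is the sequence feature most often tied to this family. RefSeq start sites on GRCm38.p6 were scanned for 47 of the 61 genes. The remaining genes, Eif1a, Eif3j2 and Eif4ebp3 among them, were not scanned, which does not show that they lack a start. A run was counted where C is followed by at least 4 pyrimidines and begins within 5 bases of an annotated start, on the transcribed strand only, in a window of 30 bases with 10 bases before the start. It was present at 1 or more starts of 11 of the 47 genes (23.4%). Among all 27025 genes with a start the share was 21.2%. That set may not have been limited in the same way, so these shares are only roughly comparable. The longest runs of the family and, for contrast, the windows of Eif2s1 and Eef1b2 without one are given 5′ to 3′, with the run in capitals.
Eif3f, chr7:108934405-108934434, plus strand: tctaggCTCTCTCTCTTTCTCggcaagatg
Eif2s3x, chrX:94212632-94212661, minus strand: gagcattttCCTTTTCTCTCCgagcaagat
Eif2s3y, chrY:1010585-1010614, plus strand: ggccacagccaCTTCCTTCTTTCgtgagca
Eef1a1, chr9:78481705-78481734, minus strand: ctccgCCCTCTTCCCgagggtgggggagaa
Eif3l, chr15:79075213-79075242, plus strand: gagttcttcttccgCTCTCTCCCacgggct
Eif2s1, chr12:78862062-78862091, plus strand: ggttgggcgaagcgcacgctgaggagcttc
Eef1b2, chr1:63176821-63176850, plus strand: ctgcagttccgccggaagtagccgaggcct
The match is to letters alone, and a window without one says nothing about how that mRNA is regulated. The 11 genes with a run had a median dormant minus proliferating difference of −0.71 over all cells and −0.09 without low-label cells. The other 36 had −0.98 and −0.14 on the same log2 scale.

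Values were normalised reads per gene and cell, and the sequencing depth behind them was 945351 to 5306777 recovered reads per cell, with 2399 to 10509 genes above 0. The label eCFP parted the dormant cells. Of the 28, 22 had eCFP between 349 and 5256, and 6 had it between 0 and 87.6. All 29 proliferating cells had eCFP between 327 and 3230. The 6 dormant cells under an eCFP of 100, called low-label cells, were both dormant cells of mouse 360, 2 of the 6 of mouse 369, 1 of the 5 of mouse 1184 and the 1 cell of mouse 244. They had 12 to 18 of 18 pan-leukocyte genes above 0, with a summed level of 43367 to 95200, and Ptprc (CD45) was above 0 in 5 of them. In labelled dormant cells that sum was 848 to 20955 and in proliferating cells 719 to 10059, with Ptprc above 0 in 4 of 22 and 3 of 29. At least 5 of the 18 genes were above 0 in 11 of the 22 labelled dormant and 13 of the 29 proliferating cells, a set called leukocyte-rich. The list is not specific to leukocytes in these data, since Arhgdib was above 0 in 29 and Lyn in 20 of the 29 proliferating cells. Genes of the tumour list, eCFP among them, summed to a median of 19977 in labelled dormant, 18826 in proliferating and 4023 in low-label cells, and eCFP itself had a median of 2.47 in the low-label cells against 2034 and 1361 in labelled dormant and proliferating cells. The low-label cells were picked by eCFP, so its low level in them follows from the rule, and the tumour sum includes it. The luciferase gene luc2, which the rule did not use, was at 2.28 to 230 in them and at least 1850 in every other cell. What type of cell they are was not tested.

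No translation factor passed the test between the states, with or without the low-label cells. Over all cells the adjusted p was at least 0.437 for each of the 61 (limma on mouse means, Benjamini-Hochberg over 11843 genes), and 0% of all genes passed. At an unadjusted p under 0.05, 11 of the 61 factors were lower in dormant cells (18%) against 6.22% of all genes, and 0 were higher against 3.28%. The 11 were Eif2s1, Eif1a, Eif2a, Eif2d, Eif3m, Eif5a, Eef1b2, Eef1d, Eef1e1, Eef1g and Eef1akmt2. edgeR on recovered reads called 0 factors by adjusted p, while 0.152% of all genes were higher by it. At its unadjusted p under 0.05 there were also 0 factors, against 1.01% of all genes lower and 5.72% higher. DESeq2 called 0 factors by adjusted p, against 0.0676% of all genes lower and 2.53% higher. It had Eef1e1 and Eif2s1 lower at an unadjusted p under 0.05, against 1.77% of all genes, and 0 factors higher, against 7.19%. The difference was below 0 for 50 of the 61 factors (82%) and for 63.1% of all genes, and their median was −0.96, where that of all genes was −0.35. In 17 factors (27.9%) the dormant mean was the lower in all 4 mice with both states, as it was in 14.8% of all genes. The mouse means of the 2 states overlapped for all 61 factors, whereas the dormant means lay wholly below in 0.363% of all genes and wholly above in 0.0422%. With the mouse as a block, 9 factors (14.8%) were lower at an unadjusted p under 0.05 against 8.21% of all genes, and 0 higher against 1.03%. Of the 11 named above, Eef1g, Eif2a, Eif2s1 and Eif3m were among these 9. The other 7 (Eef1akmt2, Eef1b2, Eef1d, Eef1e1, Eif1a, Eif2d and Eif5a) missed that threshold with the block, and Eefsec, Eif1ad, Eif2s3x, Eif3h and Eif3l met it only with the block. The blocked difference was below 0 for 57 factors and for 76.5% of all genes. Each difference is on the log2(value + 1) scale, averaged first over a mouse's cells, and counts cells at 0, so it mixes level with detection. Rescaling by median of ratios took the median of all genes to −0.16 and the factors' median to −0.56, and left 3 factors lower at an unadjusted p under 0.05.

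Leaving out the 6 low-label cells removed mice 244 and 360 from the dormant group. The median of the 61 factors was then −0.09, while that of all genes was 0.09, and 38 of them (62.3%) were below 0 against 45.5%. Eif2s1 was the 1 factor lower at an unadjusted p under 0.05 (1.64%, against 0.509% of all 11595 genes tested), and 0 factors were higher, against 1.45%. Among all genes 0% passed limma's adjusted test, and the smallest adjusted p of a factor was 1.00. In 15 factors (24.6%) the dormant mean was the lower in all 3 remaining mice with both states, against 12.3% of all genes. With the mouse as a block, 3 of 60 factors tested (5%) were lower at an unadjusted p under 0.05, Eif2s1, Eif2s3y and Eif3m, against 2.09% of all genes, and 0 were higher against 1.14%. The blocked difference was below 0 for 45 of the 60 and for 56.1% of all genes. No factor's mouse means parted the states, while the dormant means lay wholly below in 0.181% and wholly above in 0.207% of all genes. edgeR had 0 factors at an unadjusted p under 0.05, against 0.811% of all genes lower and 1.63% higher. DESeq2 had Eif2d lower and Eef2 higher at that threshold, against 1.51% and 1.91% of all genes, and 0 factors by adjusted p, against 0.00862% lower and 0.112% higher.

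**Figure D1:**
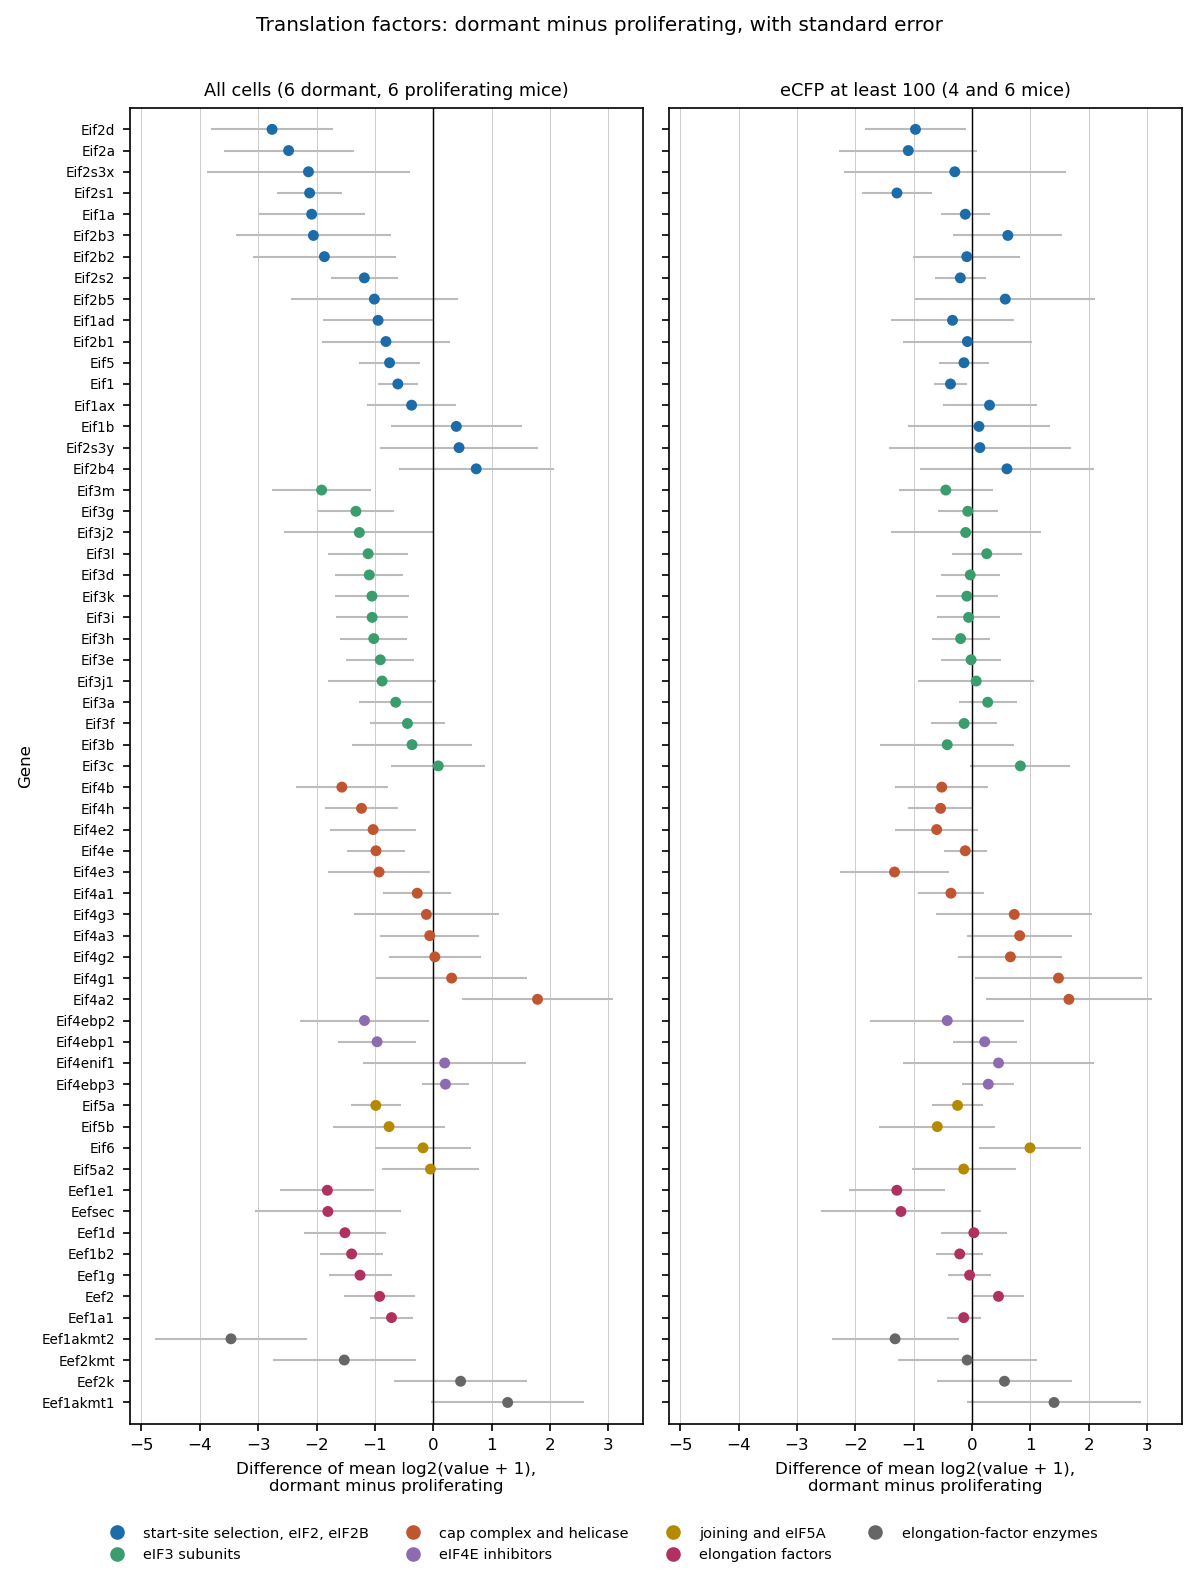
Difference of the mean log2(value + 1), dormant minus proliferating, of the 61 factors in all cells (left, 6 and 6 mice) and in cells with eCFP of at least 100 (right, 4 and 6 mice), with limma's standard error as grey bars and the factor's role as colour. On the left 50 of 61 points lie below 0, and on the right 38, with Eif2s1 at −2.12 and −1.29.

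The leukocyte-rich cells were also left out, which left 11 dormant cells (3 mice) and 16 proliferating ones (6 mice). Of 59 factors tested, 0 were lower at an unadjusted p under 0.05 against 0.116% of all genes, and 0 were higher against 5.13%. Their median difference was 0.48 against 0.95 over all 10347 genes, and 18 of 59 (30.5%) were below 0 against 23.5%. Eif2s1 was at −0.26, Eef1g at 0.07, Eif5a at 0.34, Eef1a1 at −0.24 and Eef2 at 0.80 in these cells. All 3 dormant cells of mouse 452, the mouse with the lowest Eif2s1, were leukocyte-rich and so were left out, as were cells of 5 of the 6 proliferating mice. The proliferating means of mice 268, 288 and 360 then rested on 1 cell each. The cell of mouse 268 had 2399 genes above 0, the fewest of all 57 cells, and its genes at 0 enter these differences.

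The 61 factors together took a smaller share of each low-label cell. They held 0.486% to 1.39% of the normalised gene value of the 6 low-label cells, with a median of 1.11%. In the 22 labelled dormant cells they held 1.51% to 3.88%, with a median of 2.39%, and in the 29 proliferating cells 2.00% to 3.99%, with a median of 2.71%. Every low-label cell thus lay below every other cell, while labelled dormant and proliferating cells overlapped over most of their range. As means over mice the shares were 1.90% ± 0.70 (SD, n = 6) in dormant cells, 2.54% ± 0.38 (SD, n = 4) in labelled dormant cells and 2.83% ± 0.29 (SD, n = 6) in proliferating cells. In the 3 mice with labelled cells of both states, the dormant and proliferating shares were 2.96% and 2.83% in mouse 369, 2.68% and 2.80% in mouse 452, and 2.43% and 3.07% in mouse 1185. The dormant share was thus the higher in mouse 369 and the lower in mice 452 and 1185.

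**Figure D2:**
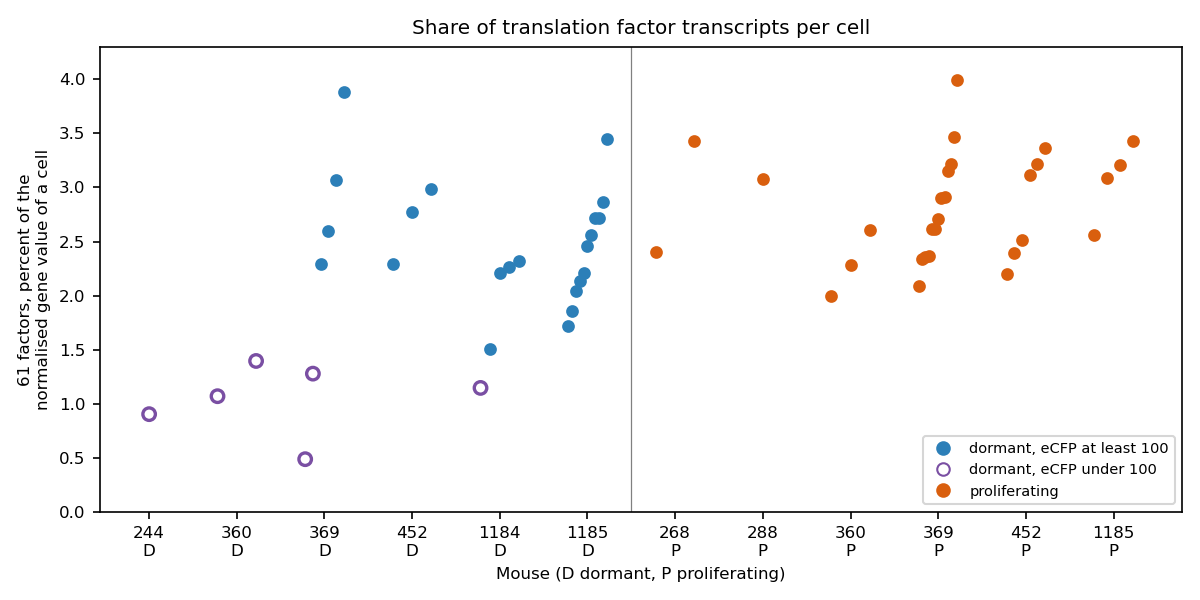
Share of each cell's normalised gene value held by the 61 factors, in percent, by mouse and state, with 1 point per cell. The 6 open circles are dormant cells with eCFP under 100 and lie between 0.486% and 1.39%, below all labelled dormant cells (1.51% to 3.88%) and all proliferating cells (2.00% to 3.99%).

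Eif2s1, ENSMUSG00000021116 on chromosome 12 from 78861819 to 78887010 (GRCm38), encodes the alpha subunit of eIF2, the one whose phosphorylation slows initiation. It had the smallest p of the family in both cell sets. Its mean log2 level in the 6 dormant mice ran from 7.61 through a median of 9.10 to 10.68, and in the 6 proliferating mice from 10.62 through 11.02 to 11.97. Only dormant mouse 1185, at 10.68, reached the lowest proliferating mouse, mouse 268. The difference was −2.12 (SE 0.56, adjusted p = 0.437 by limma), and the dormant mean was the lower in 4 of 4 mice with both states. In labelled cells the 4 dormant means were 7.61 in mouse 452, 10.15 in mouse 1184, 10.68 in mouse 1185 and 11.26 in mouse 369. Mouse 452 therefore stood far below the other dormant mice, and mouse 369 lay within the proliferating range. The difference was −1.29 (SE 0.60, unadjusted p = 0.044, adjusted p = 1.00 by limma), with the lower mean in 3 of 3 mice. It missed the unadjusted threshold when mouse 288, 360, 452 or 1184 was left out, and was −0.56 without mouse 452. Without the 4 cells that had fewer than 3500 genes above 0, 1 of them dormant in mouse 452, the difference was −1.16 over all cells and −0.57 in labelled cells. Eif2s1 was above 0 in all 57 cells, with 970 to 5300 per proliferating cell and 1.59 to 4499 per labelled dormant cell.

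The beta subunit Eif2s2 had a difference of −1.18 (SE 0.58) over all cells and −0.20 (SE 0.44) in labelled cells. The gamma subunit, which binds the initiator tRNA, is encoded on both sex chromosomes, by Eif2s3x and Eif2s3y, whose copies are alike enough that reads may be split between them. Eif2s3x differed by −2.14 (SE 1.73) and Eif2s3y by 0.44 (SE 1.35) over all cells, and by −0.29 (SE 1.91) and 0.14 (SE 1.56) in labelled cells. Their means varied widely between mice. Eif2s3x ran from 0.30 to 8.85 over the dormant mice and from 0 to 10.97 over the proliferating mice, and Eif2s3y from 5.13 to 8.78 and from 0 to 9.19. The 5 genes of the exchange factor eIF2B were not alike: over all cells Eif2b1, Eif2b2, Eif2b3 and Eif2b5 differed by −0.81, −1.86, −2.05 and −1.01, and Eif2b4 by 0.74, with standard errors of 1.10 to 1.43. In labelled cells the 5 lay between −0.09 and 0.62.

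Among the genes of start-site selection, Eif1 was the second most abundant factor per length and had the smallest standard error of the 61. Its dormant means ran from 11.48 through 12.77 to 13.51 and its proliferating means from 12.80 through 13.43 to 13.71. The difference was −0.61 (SE 0.34) over all cells and −0.37 (SE 0.28) in labelled cells, where the 4 dormant means were 12.57, 12.67, 12.93 and 13.51 in mice 1184, 369, 1185 and 452. Eif1a, on which start-codon scanning depends together with eIF1, differed by −2.08 (SE 0.91) over all cells and by −0.11 (SE 0.42) in labelled cells. The 1 dormant cell of mouse 244 was at 3.26 while the other dormant means were 8.85 to 11.25 and the proliferating means 10.51 to 11.09. The near-identical Eif1ax differed by −0.37 (SE 0.76) and 0.30 (SE 0.81). Eif5, which triggers GTP hydrolysis on eIF2, differed by −0.75 (SE 0.52) and −0.14 (SE 0.43). The paralogue Eif1b and the related Eif1ad differed by 0.40 (SE 1.12) and −0.94 (SE 0.95) over all cells, and Eif1ad had the lower dormant mean in 4 of 4 mice with both states.

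Eif2a and Eif2d encode factors that can bring initiator tRNA to the ribosome without eIF2, and both had low levels. Eif2a ran from 2.90 through 4.34 to 6.88 over the dormant mice and from 4.38 through 7.41 to 9.04 over the proliferating mice. Its difference of −2.48 (SE 1.11) over all cells was −1.09 (SE 1.18) in labelled cells. Eif2d ran from 1.65 through 6.28 to 7.44 and from 6.73 through 8.67 to 9.33, and its difference was −2.76 (SE 1.04) over all cells and −0.97 (SE 0.86) in labelled cells. Within the whole group of 17 genes for start-site selection, eIF2 and eIF2B, 14 differences were below 0 over all cells and 11 in labelled cells, with medians of −1.01 and −0.11.

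Of the 14 subunit genes of eIF3, the scaffold of the initiation complex, 13 had a difference below 0 over all cells and 10 in labelled cells, with medians of −1.03 and −0.06. Eif3m alone was lower at an unadjusted p under 0.05. Its dormant means ran from 5.53 through 8.21 to 10.60 and its proliferating means from 6.74 through 10.88 to 11.32. The difference was −1.91 (SE 0.84) over all cells, with the lower dormant mean in 4 of 4 mice with both states, and −0.45 (SE 0.81) in labelled cells, with the lower mean in 3 of 3. The labelled dormant means of Eif3m were 7.95, 10.01, 10.59 and 10.60 in mice 452, 1184, 369 and 1185. With the mouse as a block the labelled difference was −1.28 (unadjusted p = 0.0249 by limma).

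Eif3e, the subunit first found as an integration site of a mammary tumour virus, differed by −0.91 (SE 0.59) over all cells and by −0.02 (SE 0.51) in labelled cells. The core subunits Eif3a and Eif3b differed by −0.64 and −0.36 over all cells, and Eif3c by 0.09. In labelled cells they were at 0.27, −0.42 and 0.83. The 9 other subunit genes were between −1.32 (Eif3g) and −0.44 (Eif3f) over all cells, and between −0.19 (Eif3h) and 0.25 (Eif3l) in labelled cells. Eif3j1 and Eif3j2 are near-identical copies, so their split of reads is uncertain.

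The 11 genes of the cap-binding complex and its helicase were not alike. Over all cells 8 were below 0 and 0 had an unadjusted p under 0.05, and the median of −0.27 was above that of all genes. Eif4e, the cap-binding protein itself, ran from 8.68 through 10.84 to 11.64 over the dormant mice and from 11.12 through 11.47 to 12.20 over the proliferating mice. Its difference was −0.98 (SE 0.49) over all cells and −0.11 (SE 0.37) in labelled cells, where the 4 dormant means of 11.07, 11.20, 11.64 and 11.89 included 3 within the proliferating range and 1 just below it. The homologue Eif4e2 differed by −1.03 (SE 0.74) and −0.60 (SE 0.71). Eif4e3 was above 0 in 5 of the 28 dormant cells and in 6 of the 29 others and differed by −0.93 (SE 0.88) and −1.33 (SE 0.93).

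The helicase gene Eif4a1 had dormant means of 8.52 through 10.08 to 11.09 and proliferating means of 8.29 through 10.38 to 11.17, and a difference of −0.27 (SE 0.59) over all cells, which became 0.16 after rescaling by the median of ratios. In labelled cells it was −0.36 (SE 0.57), with dormant means of 9.55, 9.77, 10.08 and 10.09. Its close paralogue Eif4a2 had the largest positive difference of the 61, 1.79 (SE 1.30) over all cells and 1.66 (SE 1.42) in labelled cells. The 1 proliferating cell of mouse 288 had Eif4a2 at 0, and without that mouse the differences were 0.63 and 0.51. With the mouse as a block the difference over all cells was 0.02. Eif4a3, a component of the exon junction complex in spite of its name, differed by −0.06 (SE 0.84) and 0.82 (SE 0.90).

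The scaffold Eif4g1 differed by 0.32 (SE 1.30) over all cells and 1.48 (SE 1.44) in labelled cells. With the mouse as a block these were −1.87 and −0.51, so its sign depended on which mice were compared. Eif4g2, a scaffold that lacks the eIF4E-binding part and serves cap-independent initiation, differed by 0.03 (SE 0.78) and 0.66 (SE 0.89), and by −0.80 and −0.01 with the block. The cofactors of the helicase, Eif4b and Eif4h, differed by −1.57 (SE 0.79) and −1.23 (SE 0.62) over all cells and by −0.52 and −0.54 in labelled cells. Eif4g3, the third scaffold gene, differed by −0.12 (SE 1.24) and 0.72 (SE 1.33).

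Among the genes that restrain eIF4E, Eif4ebp1, the best known target of mTOR in this pathway, was abundant in both states. Its dormant means ran from 8.21 through 10.12 to 11.99 and its proliferating means from 9.48 through 11.32 to 12.31. The difference was −0.96 (SE 0.68) over all cells and 0.22 (SE 0.55) in labelled cells, with labelled dormant means of 10.29, 11.22, 11.43 and 11.99 in mice 369, 1185, 1184 and 452. Mice differed in both states alike here, with mouse 369 below mice 452 and 1185 also in proliferating cells, at 9.86 against 11.44 and 12.31. Eif4ebp2 and Eif4ebp3 were sparse, above 0 in 14 and 4 of 28 dormant cells and in 19 and 6 of 29 proliferating cells, and differed by −1.18 (SE 1.11) and 0.21 (SE 0.40) over all cells. Eif4enif1, which carries eIF4E to the nucleus and to mRNA granules, differed by 0.20 (SE 1.40).

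Eif5a, ENSMUSG00000078812 on chromosome 11 from 69916714 to 69921958, encodes the hypusine-bearing factor that helps the ribosome through difficult peptide bonds. Its dormant means ran from 10.19 through 11.18 to 11.42 and its proliferating means from 11.08 through 11.96 to 12.84. The difference was −0.98 (SE 0.43, adjusted p = 0.477 by limma) over all cells and −0.25 (SE 0.44) in labelled cells. In labelled cells 3 dormant mice were at 11.12, 11.42 and 11.45 and mouse 369 was at 13.05, above every proliferating mouse. Within mouse 369 the 4 labelled dormant cells thus had the higher mean, at 13.05 against 12.84, whereas with its 2 low-label cells the dormant mean of that mouse was 11.28. Per cell, the median of Eif5a was 2963 in labelled dormant and 5829 in proliferating cells, with ranges of 1505 to 12424 and 1591 to 10202. These medians pool cells of different mice. Mouse 369, with the highest means, gave 13 of the 29 proliferating and 4 of the 22 labelled dormant cells. With the mouse as a block, the labelled difference of Eif5a was 0.027. Eif5a2, the copy of Eif5a, was above 0 in 5 of the 28 dormant cells and in 9 of the 29 others and differed by −0.05 (SE 0.83).

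Eif6, which keeps the ribosomal subunits apart until the large one is mature, differed by −0.17 (SE 0.83) over all cells and 0.99 (SE 0.88) in labelled cells. The 4 labelled dormant means were 9.75, 9.91, 9.95 and 10.62, each above that of proliferating cells in the same mouse where there was one, while proliferating mouse 268 was at 4.89. Eif5b, the GTPase of subunit joining, differed by −0.76 (SE 0.95) and −0.59 (SE 0.99).

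The 7 genes grouped under elongation, which include Eefsec and, by its symbol alone, Eef1e1, were all below 0 over all cells, with a median of −1.40, and 5 were below 0 in labelled cells, with a median of −0.14. Eef1a1, ENSMUSG00000037742 on chromosome 9 from 78478449 to 78489151, was the most abundant factor per length in each state. Its dormant means ran from 12.31 through 13.99 to 14.34 and its proliferating means from 13.20 through 14.64 to 14.91, and the difference was −0.71 (SE 0.37). In labelled cells the dormant means were 13.90, 14.15, 14.21 and 14.38, inside the proliferating range, and the difference was −0.14 (SE 0.29).

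The 3 subunits of eEF1B had differences below −1.2 over all cells and near 0 in labelled cells. Eef1b2 had dormant means of 8.63, 8.83, 9.08 and 9.13 in the 4 mice with low-label cells and 10.57 and 11.11 in mice 1185 and 452, which had none. Its proliferating means were 10.39 to 11.46, so only the first 4 lay below them. Its difference was −1.40 (SE 0.54) over all cells and −0.21 (SE 0.41) in labelled cells, with labelled dormant means of 10.46, 10.57, 10.85 and 11.11. Eef1g ran from 8.54 through 10.48 to 11.54 and from 10.66 through 11.60 to 12.08, and the difference was −1.25 (SE 0.54) over all cells and −0.04 (SE 0.37) in labelled cells. Its 4 labelled dormant means, 11.38, 11.38, 11.54 and 11.68, were close together. Eef1d differed by −1.51 (SE 0.69) and 0.03 (SE 0.56).

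Eef2, the translocase, ran from 7.16 through 9.82 to 10.82 over the dormant mice and from 10.09 through 10.41 to 10.92 over the proliferating mice. Its difference was −0.92 (SE 0.61) over all cells and 0.45 (SE 0.44) in labelled cells, where the dormant means were 10.31, 10.82, 10.96 and 11.56 and mice 369 and 1184 lay above every proliferating mouse. Eef1e1, which in spite of its symbol is a scaffold protein of the aminoacyl-tRNA synthetase complex, kept a lower dormant mean. It differed by −1.81 (SE 0.81) over all cells and by −1.29 (SE 0.83) in labelled cells, with the lower dormant mean in 4 of 4 and in 3 of 3 mice. Its labelled dormant means were 5.53, 7.18, 8.33 and 8.49 against proliferating means of 7.23 to 9.54. Eefsec, which delivers selenocysteine, differed by −1.81 (SE 1.25) and −1.22 (SE 1.37).

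**Figure D3:**
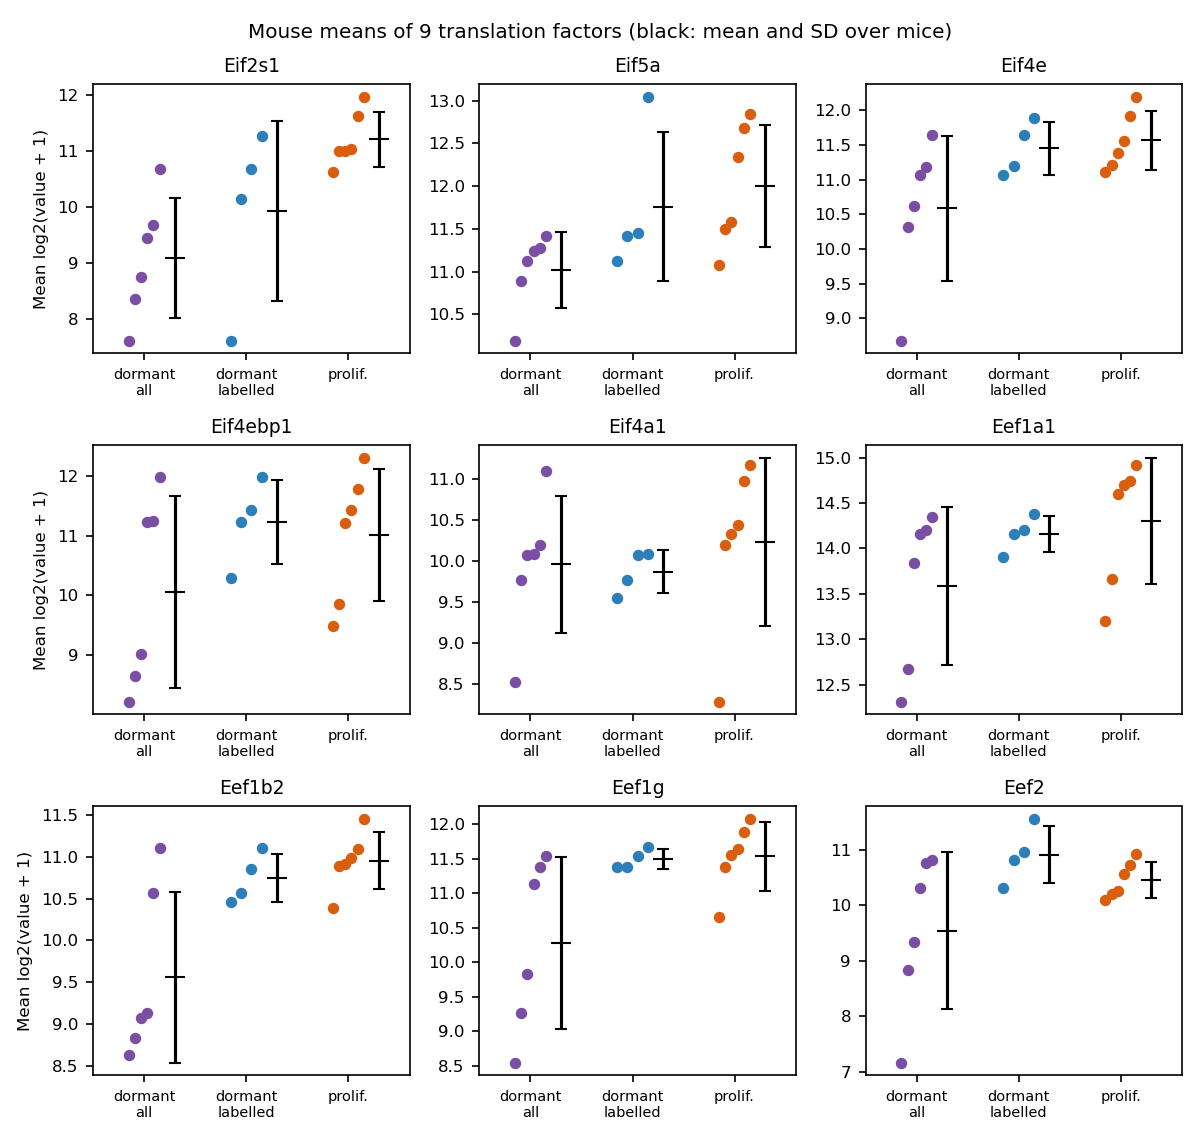
Mean log2(value + 1) per mouse of 9 factors in all dormant cells (6 mice), dormant cells with eCFP of at least 100 (4 mice) and proliferating cells (6 mice), with 1 point per mouse and the mean ± SD in black. Each panel has its own axis, which does not start at 0; Eef1b2 parts 4 low dormant means (8.63 to 9.13) from the rest in the first column and has none of them in the second.

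Among the 4 enzymes that act on elongation factors, Eef1akmt2, a lysine methyltransferase of eEF1A, had the largest negative difference of the 61 genes over all cells, −3.47 (SE 1.30). In labelled cells its difference was −1.32 (SE 1.09). Dormant cells had it above 0 in 18 of 28 (64.3%, with an exact Clopper-Pearson 95% interval of 44.1% to 81.4%), the labelled ones in 17 of 22 (77.3%, 54.6% to 92.2%) and proliferating cells in 26 of 29 (89.7%, 72.6% to 97.8%). Its dormant means were 0 in mice 244 and 360. Eef2k, the inhibitory kinase of eEF2, was seen in 13 of the 28 dormant cells and in 13 of the 29 others and differed by 0.47 (SE 1.14) over all cells and 0.56 (SE 1.15) in labelled cells. Eef1akmt1 and Eef2kmt, methyltransferases of eEF1A and eEF2, differed by 1.28 (SE 1.31) and −1.52 (SE 1.22) over all cells.

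Per length of the union of exons, the order of the leading factors was alike in both states. The median value per kilobase in proliferating cells was 6530 for Eef1a1, 4632 for Eif1, 2452 for Eif5a, 1410 for Eef1g and 908 for Eif3m. In labelled dormant cells it was 7674 for Eef1a1, 3580 for Eif1, 1247 for Eif5a, 1122 for Eef1g and 1033 for Eif4ebp1. Eif4ebp1 had rank 5 in labelled dormant and rank 9 in proliferating cells, with 2269 and 1282 as medians of its value per cell. All these medians pool cells of different mice, and the mix of mice was not the same in the 2 states. Mouse 369 gave 13 of the 29 proliferating and 4 of the 22 labelled dormant cells. With the mouse as a block, the labelled difference of Eif4ebp1 was −0.036.

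Detection followed the same pattern as the means. In proliferating cells 30 of the 61 factors were above 0 in every cell, in labelled dormant cells 32, in all dormant cells 21 and in low-label cells 22. Over all cells 35 factors were detected in a larger share of proliferating than of dormant cells, 7 in a smaller and 19 in an equal share. Without low-label cells these counts were 20, 14 and 27. With each cell thinned to 900000 reads, 29 factors were in every proliferating cell, 31 in every labelled dormant cell and 14 in every dormant cell. None of these counts was made over all genes, so they do not show whether the factors differ from other genes. The median number of genes above 0 was 7238 in all dormant, 7854 in labelled dormant and 7649 in proliferating cells. The median number of factors above 0 per cell was 57 in proliferating cells and 56.5 in labelled dormant cells, with 49 in low-label cells. The intervals on shares of cells cover counting error alone, not variation from mouse to mouse.

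**Figure D4:**
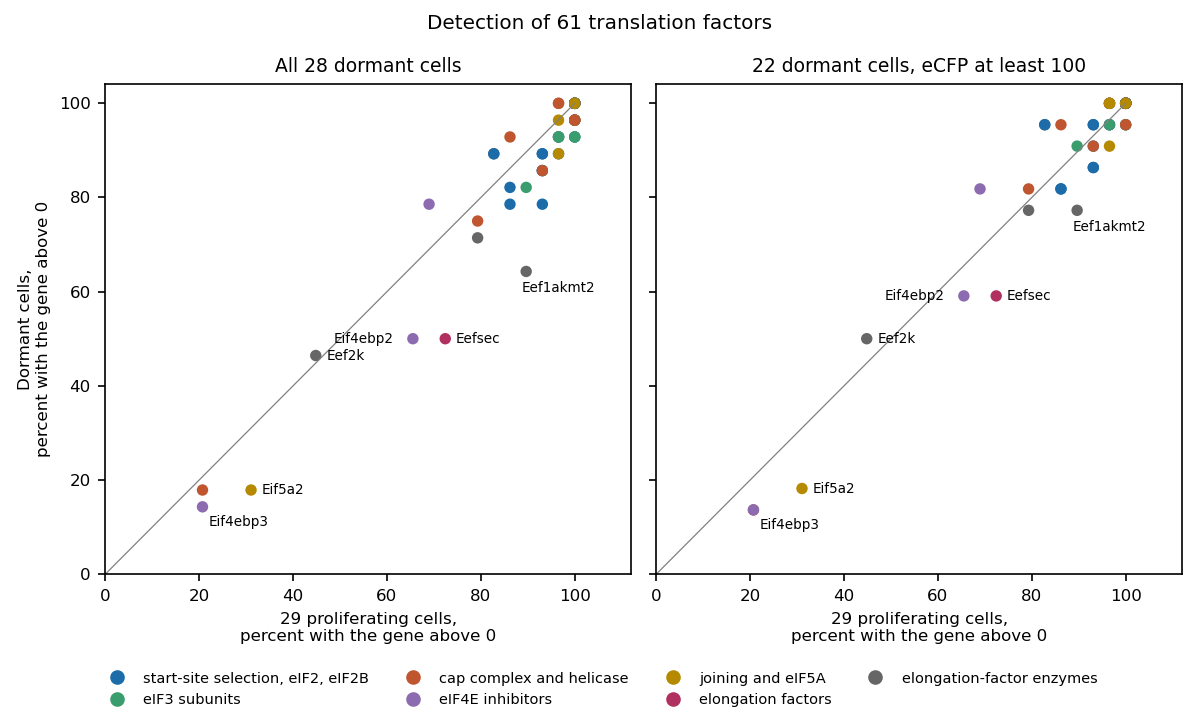
Percent of dormant cells with each factor above 0 against the percent of the 29 proliferating cells, for all 28 dormant cells (left) and the 22 with eCFP of at least 100 (right), with 1 point per gene coloured by role and the line of equality. On the left 35 genes lie below the line and 7 above it; on the right 20 and 14.

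The low-label cells could be set beside labelled dormant cells of the same mouse in 2 mice. In mouse 369, with 2 low-label and 4 labelled cells, 58 of the 61 factors (95.1%) had the lower mean in the low-label cells, as had 78.1% of all genes, and the median difference was −4.57 against −2.39. In mouse 1184, with 1 and 4 cells, 55 of 61 (90.2%) were lower against 81.9% of all genes, with −6.26 against −3.30. These are differences between few cells of 1 mouse and were not tested. Low-label cells had 2673 to 7978 genes above 0 and labelled dormant cells 2984 to 9880. In mouse 369 the low-label cells had 2673 and 5926 genes above 0, and the labelled dormant cells 6174 to 9880. In mouse 1184 the low-label cell had 3316 and the labelled dormant cells 5769 to 9486. These differences thus also hold the lower number of genes detected in the low-label cells.

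The 6 low-label cells were not alike. In the 1 cell of mouse 369 with no eCFP, Eif1 was at 20670, the highest value of Eif1 in any cell, and Eif4a1 at 1970, while Eef1a1 was at 34.5, Eef2 at 6.26, Eif5a at 18.8 and Eif4e at 18.8. Neutrophil genes summed to 696995 in that cell. The 1 cell of mouse 244 had 433403 for the same neutrophil list but 6519 for Eef1a1 and 1166 for Eif5a. In the low-label cell of mouse 1184 the neutrophil genes were at 0, Eef1a1 was at 19033 and Eif4e at 2229, and Eif2s1 was at 1.33, Eef1b2 at 3.99 and Eif4a1 at 10.6. Both cells of mouse 360 had Eef1a1 at 16095 and 13231 and Eif2s1 at 509 and 366, with macrophage genes summing to 207750 and 201221. The macrophage sum was not particular to mouse 360. It was 163585 in the cell of mouse 369 with no eCFP and 66891 in the other low-label cell of that mouse. In the low-label cells of mice 244 and 1184 it was 183051 and 143468. Eif4a1 reached 703 to 2503 in 5 of the 6 cells, within the 140 to 2097 of labelled dormant cells or above it. Eif2s1 was at most 838 in all 6, against a median of 1758 in labelled dormant and 2512 in proliferating cells.

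The balance of paralogues was taken as the difference of their log2 values in the same cells. Where one of a pair is at 0, as Eif5a2 was in most cells, this difference is only the level of the other with its sign turned and so moves with the scaling. Eif4a2 minus Eif4a1 was −2.39 ± 1.49 (SD, n = 6) in dormant, −2.43 ± 1.15 (SD, n = 4) in labelled dormant and −4.45 ± 3.46 (SD, n = 6) in proliferating mice. Without its lowest value, −11.17 in the 1 cell of mouse 288, where Eif4a2 was at 0, the proliferating mice ran from −4.18 to −1.22, within the range of the dormant mice. Eif5a2 minus Eif5a was −9.87 ± 1.46, −10.70 ± 0.69 and −10.81 ± 1.35 in the same 3 groups. Eif4e2 minus Eif4e was −2.67 ± 1.31, −3.11 ± 1.44 and −2.62 ± 0.33. The groups overlapped in each of these.

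Genes of the wider pathway were counted from lists of known roles. Of 22 cytosolic aminoacyl-tRNA synthetase and scaffold genes, which load tRNAs with amino acids, 21 were below 0 over all cells with a median of −1.58. Among all genes 63.1% were below 0, with a median of −0.35. Dars, Eprs, Lars and Aimp2, 4 of the 22, were lower at an unadjusted p under 0.05, against 6.22% of all genes. In labelled cells 9 of 22 were below 0, with a median of 0.22 and 0 at that threshold in either direction. Eprs, which loads glutamate and proline, differed by −2.87 (SE 0.94) over all cells and by −0.86 (SE 0.54) in labelled cells. Of 8 poly(A)-binding proteins and their partners, 7 were below 0 over all cells and 4 in labelled cells. Pabpc1, which bridges the poly(A) tail and eIF4G, differed by −1.24 (SE 0.51) and −0.86 (SE 0.46), with the lower dormant mean in 4 of 4 and 3 of 3 mice.

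The 13 genes of the eIF2 alpha kinases, phosphatase subunits and the Atf4 response had a median of −0.50 over all cells, with 9 below 0. In labelled cells 12 were above 0, where the list's median was 0.72, that of all genes 0.09 and 0 genes were at an unadjusted p under 0.05. Asns, the asparagine synthetase that Atf4 induces, differed by −3.21 (SE 1.29) over all cells and 0.06 (SE 0.64) in labelled cells. With the mouse as a block it differed by −2.07 and −0.56, and its dormant mean was the lower in 4 of 4 and 3 of 3 mice. Atf3 of the same list differed by 0.86 (SE 1.32) in labelled cells and by −0.87 there with the block. The list as a whole was not counted with the block. The 12 genes of mTOR complex 1, S6 kinase, the Mnk kinases and Pdcd4 had medians of −0.30 and 0.27, and the 9 of termination and ribosome recycling −0.80 and 0.14, with 0 at that threshold in both cell sets. The 9 enzymes of the hypusine and diphthamide modifications, which eIF5A and eEF2 carry, had medians of −0.61 and 0.21 and 0 at that threshold. The 9 mitochondrial factors had −0.61 and −0.41, and Tsfm alone, at −2.54 (SE 1.19) over all cells, was lower at that threshold. No gene of these lists passed limma's adjusted test in either cell set.

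Pan-leukocyte and macrophage markers moved with the state in the same data, and markers of other cells less so. Over all cells 15 of 17 pan-leukocyte genes tested were higher in dormant cells at an unadjusted p under 0.05 by limma, and 8 of 10 monocyte and macrophage genes, against 3.28% of all genes. Of the other lists, 0 of 6 neutrophil, 0 of 3 erythroid and 0 of 1 lymphoid genes tested were, and Pf4 was the 1 stromal or megakaryocyte gene tested and was higher. In labelled cells 5 of 16 pan-leukocyte and 5 of 9 macrophage genes were higher, against 1.45% of all genes. There 0 of 4 neutrophil genes and 0 of 3 erythroid genes were, and all 3 erythroid differences were below 0, with a median of −0.80. The macrophage gene Lyz2 differed by 8.20 (SE 1.97) over all cells and 3.34 (SE 1.24) in labelled cells. These marker counts and differences were taken without the mouse as a block. With it Lyz2 differed by 6.26 and 1.75 (unadjusted p = 0.0117 and 0.142 by limma). The pan-leukocyte gene Tyrobp then differed by 4.82 and 1.11 (unadjusted p = 0.0271 and 0.303 by limma). For eCFP, by which the labelled cells were chosen, the differences were −3.35 (SE 1.25) and 0.26 (SE 0.46). The T-cell genes Cd3d and Cd3e, the plasma cell gene Jchain and the stromal genes Col1a1, Col1a2, Bglap and Cxcl12 were not analysed here. Their part in the differences of the factors was not tested.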

How the data were processed

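Single cells were sequenced with SMARTer and Nextera XT full-length libraries and ERCC spike-ins, per the labels. The submitters' processing notes name STAR, RSEM, GRCm38 and mm10, with no versions. The authors deposited a signal per gene and cell, reads normalised with BASiCS, and 100% of the values were whole reads within 0.01 once divided by the worth of 1 read in the cell. The 118 spike-ins were left out. For each mouse and state, log2(value + 1) was averaged over cells, and these means were compared with limma 3.58.1 (trend, robust) in R 4.3.3, for genes above 0 in at least 6 cells, with Benjamini-Hochberg adjustment over all of them and a threshold of 0.05. Mice are separate animals, and cells of a mouse are not replicates. edgeR 4.0.16 (TMM, quasi-likelihood) and DESeq2 1.42.0 served as alternatives on sums of recovered reads, 1 sum for each mouse and state. The other alternatives were the pseudocount, the filter, the scaling, weights, the mouse as a block, leaving out each mouse, and the label and leukocyte thresholds. The scripts were tested on simulated data, with changes larger than any difference of a factor here and cells drawn without regard to mouse. That test does not show what size of difference these data could detect.

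Pairing comes from the labels, which give cells of both states to the same mouse. Deviations from the state means correlated at −0.0056 in mouse 360, 0.337 in mouse 369, 0.164 in mouse 452 and −0.0134 in mouse 1185. The table held 28 dormant and 29 proliferating cells, where the series text counts 28 and 32. No pair of cells correlated above 0.891, and no doublet caller was run on these sorted cells. Of 12885 Ensembl identifiers, 33 had no match in the annotation. Depth was 945351 to 5306777 reads per cell, and intervals on shares of cells are exact Clopper-Pearson at 95%. The factors, the other lists, the eCFP threshold of 100 and the tests were chosen with earlier results of these data known. Genes chosen for closer description were the 10 with the smallest p over all cells, the 6 with the smallest p in labelled cells and a fixed set of well-known factors. Not all of them are given with values per mouse, and Eif4e3, Eif4g1 and Eef2k are among those that are not. Further factors are described by role. Of each other list the 2 genes with the smallest p were eligible.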

Additional observations from a re-analysis of the deposited data

Results flagged for a closer look

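Mouse means that stood apart from the rest of their group were sought in 69 groups, and 6 did by Dixon's criterion; chance gives such a flag in about 1 in 20 groups. In the dormant group Eif1a was at 3.26 in mouse 244, which gave 1 cell, and at 8.85 to 11.25 in the other mice. The other 5 belong to proliferating mouse 268, which gave 2 cells, of which 1 had 2399 genes above 0, the fewest of all 57 cells. Eif3m was at 6.74 there and at 10.37 to 11.32 in the other proliferating mice. Eif4a1 was at 8.29 against 10.19 to 11.17, and Eif4g2 at 6.13 against 10.89 to 12.94. Eif6 was at 4.89 against 9.04 to 10.53, and Eif3e at 9.10 against 11.40 to 11.87. Without mouse 268, 18 factors were lower in dormant cells at an unadjusted p under 0.05 over all cells, in place of 11.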

How the results depend on the processing

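No factor passed an adjusted threshold under any alternative run. edgeR called 18 genes over all cells and DESeq2 308, and DESeq2 called 14 in labelled cells, in place of 0. Factors lower at an unadjusted p under 0.05 over all cells numbered 3 by median of ratios, 7 from the log2 of the mean value, 3 without mouse means of 1 cell, 0 by edgeR, 2 by DESeq2 and 0 without leukocyte-rich cells, in place of 11. Leaving out 1 mouse gave 5 to 18 (5 without mouse 244, 360 or 369, 18 without mouse 268). In labelled cells the 1 factor became 0 by median of ratios, log2 of the mean, edgeR, without mouse means of 1 cell, without leukocyte-rich cells and with at most 9 of the 18 leukocyte genes (added after seeing the data). It became 3 with the mouse as a replicate block in both tables, and 0 to 2 on leaving out 1 mouse (2 without mouse 268). The median over all cells was 0.48 without leukocyte-rich cells. The replicate block changed no call by adjusted p. Over all cells it gave 9 factors at the unadjusted threshold, of which 4 were among the 11 without it. The cause of these changes was not tested.

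Signs over all cells turned as follows. Eif4g2 was −0.18 with pseudocount 10, −0.099 as CPM, −0.39 by log2 of the mean, −0.38 with weights, −0.80 with the block in both tables, −0.069 by edgeR, −0.095 by DESeq2 and −0.40 without cells under 3500 genes (added). Eif4g1 was −0.78 with weights, −1.87 and −1.88 with the block and −1.04 without mouse means of 1 cell. Eef2k was −1.10 with the block and −0.55 without those means, Eif4a2 −0.12 with weights, and Eif4e3 0.031 without cells under 3500 genes. Eif4a1 and Eif6 were 0.16 and 0.14 by median of ratios, Eif4a1 0.026 by DESeq2, and Eef2 0.18 by edgeR and 0.14 by DESeq2. Without leukocyte-rich cells Eef1g was 0.066, Eif5a 0.34, Eif1a 0.48, Eif3m 0.995, Eif2a 1.89, Eif6 2.06, Eif3e 0.47 and Eef2 0.80. Leaving out 1 mouse gave Eef2k −0.19 to 1.70, Eif4a1 −0.66 to 0.013, Eif4g1 −0.85 to 1.26, Eif4g2 −0.88 to 0.41 and Eif6 −1.01 to 0.24.

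In labelled cells Eef1g and Eif3e were 0.029 and 0.054 by median of ratios, Eif3e 0.052 without mouse means of 1 cell, Eif4g2 −0.14 by log2 of the mean and −0.25 without cells under 3500 genes, and Eif1a and Eef1a1 0.037 and 0.069 with weights. With the block Eef1akmt2 was 0.21, Eif5a 0.027, Eif4ebp1 −0.036, Eif4g1 −0.51 and Eif4g2 −0.015, and in the table of 4 mice 0.21, 0.031, −0.031, −0.52 and −0.010. Eif5a was 0.035 by edgeR and 0.0055 by DESeq2, Eif4a2 −0.15 and −0.13, Eif4e 0.067 and 0.065, Eif4ebp1 −0.025 by edgeR and Eif4g2 −0.0041 by DESeq2. Without leukocyte-rich cells Eef1g was 0.066, Eif5a 0.34, Eif1a 0.48, Eif3m 0.995, Eif2a 1.89, Eif4ebp1 −0.022 and Eif3e 0.47. With an eCFP threshold of 1000 Eef1akmt2 was 0.25, Eif3m 0.53, Eif2a 0.12, Eif3e 0.071 and Eef1a1 0.042. With at most 9 leukocyte genes Eef1g was 0.041, Eif1a 0.18, Eif4e 0.037 and Eif3e 0.16. Leaving out 1 mouse gave Eef1g −0.22 to 0.11, Eef2k −0.080 to 1.45, Eif1a −0.35 to 0.056, Eif3e −0.44 to 0.18, Eif3m −1.15 to 0.23, Eif4e −0.21 to 0.013, Eif4ebp1 −0.087 to 0.48 and Eif4g2 −0.25 to 1.11. Means of 1 to 3 cells stand behind several mice, which limits the precision of every value.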
